A study of Mus musculus with 9 samples.

Results

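Low avidity tumor-specific T cells from regressing tumors (TetLowReg, replicates 6, 7 and 8) were compared gene by gene with high avidity cells of the same specificity from progressing tumors (TetHighProg, replicates 1, 2 and 5). These are 6 of the 9 libraries of the series, chosen by their labels, and the other 3 hold low avidity cells from progressing tumors (TetLowProg, replicates 9, 10 and 12). All cells were CD8+CD44+ tumor-infiltrating lymphocytes sorted with a tetramer of GSW11, a peptide antigen of CT26, from subcutaneous CT26.WT tumors, a mouse colorectal carcinoma line, in wildtype mice. High and low avidity stand for high and low tetramer staining. Every group had received anti-PD-1 (clone RMP1-14) into the peritoneum on days 3, 6 and 9 after implantation, so no untreated cells enter the comparison. Avidity and tumor outcome differ together between TetLowReg and TetHighProg and cannot be told apart here. Per the study, the cells came from 3 regressing and 3 progressing tumors, and the labels do not tie a library to a mouse. The labels give no age or sex.

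A CD8+ T cell recognizes a peptide on MHC class I through its T cell receptor (TCR), with CD8 as coreceptor, a dimer of an alpha and a beta chain that strengthens binding and brings the kinase Lck to the receptor. Weakly binding receptors depend more on this help than strongly binding ones. Under lasting antigen in a tumor such cells can pass from a progenitor state, marked by the transcription factor TCF-1, to exhaustion, which the factor TOX supports, and the cells that divide under antibodies to PD-1 come mainly from the former. PYHIN proteins, which in the mouse are encoded by the Ifi200 genes, are interferon-inducible nucleic acid sensors and nuclear regulators.

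The RNA of each library was amplified as cDNA over 22 PCR cycles, and each library held 16405306 to 36429515 reads counted on genes. A gene was called found in a library at 10 counts or more. Between 599 and 8004 genes were found per library, with TetHighProg replicates 1 and 2 and TetLowReg replicate 6 at the low end (599 to 1298 genes) and TetLowReg replicates 7 and 8 at the high end (8004 and 7234). The mean was 1693 ± 1335 (SD, n = 3) in TetHighProg and 5335 ± 3975 in TetLowReg (exact permutation test, two-sided, p = 0.3, where 0.1 is the smallest p that 3 libraries against 3 allow). Mitochondrially encoded genes took 44.5% and 14.2% of the counts of TetLowReg replicates 7 and 8 and 1.65% to 5.30% of the other 4 libraries. Because 3 of the 6 libraries hold few genes, a level is given below in every library, as counts per 1000000 gene counts (CPM), before any summary. In sorted bulk RNA, fewer cells expressing a gene and less RNA per cell cannot be told apart.

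The genes of the sparse libraries were mostly genes that TetLowReg replicates 7 and 8 also held. Of the 1298 genes found in TetHighProg replicate 1, 88.0% were found in TetLowReg replicate 7 and 84.1% in replicate 8. For TetHighProg replicate 2 the shares of its 599 genes were 90.2% and 87.1%, and for TetLowReg replicate 6 the shares of its 766 genes were 90.6% and 90.2%. The sparse libraries overlapped less with each other, within TetHighProg and across the groups. TetHighProg replicates 1 and 2 shared 333 genes, 25.7% of the first and 55.6% of the second. TetLowReg replicate 6 shared 398 genes with TetHighProg replicate 1, 52.0% of its own and 30.7% of the other's, and 242 with replicate 2, 31.6% of its own and 40.4% of the other's. In all, 315 genes were found in every TetHighProg library and 655 in every TetLowReg library. Of the 315, 311 were found in TetLowReg replicate 7, 309 in replicate 8 and 204 in replicate 6. Of the 655, 556 were found in TetHighProg replicate 5, 382 in replicate 1 and 239 in replicate 2. There were 7447 genes found in at least 1 TetLowReg library and no TetHighProg library, of which 5165 were found in a single TetLowReg library, and 510 genes in the opposite pattern.

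**Figure D1:**
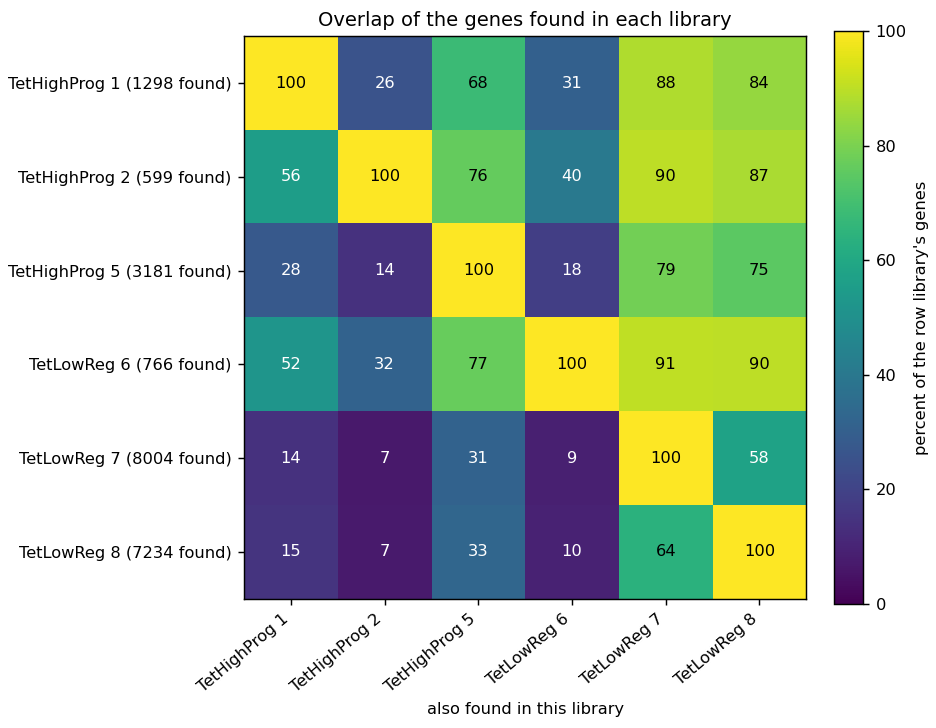
Percent of the genes found in the row library (10 counts or more) that were also found in the column library, with the number found beside each row name. The rows of TetHighProg replicates 1 and 2 and TetLowReg replicate 6 are highest in the columns of the 3 libraries with the most genes, TetHighProg replicate 5 and TetLowReg replicates 7 and 8, while the pair TetHighProg 1 and 2 shares 26% and 56%.

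Across genes, 5813 were tested with edgeR (quasi-likelihood test, the 3 groups of the series in one model). At an adjusted p under 0.05 with an absolute log2 fold change above 2, it called 0 genes (0% of those tested, smallest adjusted p = 0.233). At an unadjusted p under 0.05 there were 1105 genes with a higher fitted level in TetLowReg (19% of those tested) and 30 with a lower one (0.516%). Other tools called more, with 1131 genes by DESeq2 on the 2 groups (1115 higher and 16 lower, 33.6% and 0.482% of the 3320 genes to which it gave an adjusted p) and 2411 by limma-voom with sample weights (2399 higher and 12 lower, 41.3% and 0.206% of 5813). DESeq2 calls below can include members that the low-count filter kept out of the other tools, such as Atr and Pola1. The median fitted log2 fold change of all tested genes was 3.52, so single values are to be read against it, and it was 3.05 when libraries were scaled by size alone. No gene below is therefore said to have changed, and an adjusted p given for a gene is that of the edgeR fit.

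As a description that needs no model of the spread, a gene was counted as separated when its CPM in each library of one group lay above each library of the other, with 10 counts or more in all 3 libraries of the higher group. In this sense 137 genes were higher in TetLowReg, 1.23% of the 11164 genes found in at least 1 of the 6 libraries and 20.9% of the 655 that had the counts to qualify. There were 58 lower in TetLowReg, 0.52% of the 11164 and 18.4% of the 315 that could qualify. These counts hang on single libraries. Without TetLowReg replicate 6, the higher genes numbered 2668, and without TetHighProg replicate 5 they numbered 303. The lower genes numbered 272, 130 and 103 without TetHighProg replicate 2, 1 and 5, and 93 and 88 without TetLowReg replicate 6 and 8. Of the 137 higher genes, 79 had under 10 counts in every TetHighProg library, 43 of them with no count at all, and only 8 were found in all 6 libraries. The 58 lower genes were mostly present in both groups. All but 2, the Aldoa-like copies Aldoart1 and Aldoart2, were found in a TetLowReg library, and 26 were found in all 6. The 79 were all the genes of the 655 found in no TetHighProg library. The 2 were all those of the 315 found in no TetLowReg library, so neither number is particular to the separated genes.

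By the naming rule (the highest CPM in the lowest library of the higher group), the leading genes higher in TetLowReg included 2 mitochondrial rRNAs, an iron-storage gene and adaptors of T cell signaling. Ftl1, the ferritin light chain (chromosome 7, 45107367 to 45109308, GRCm39), stood at 866, 349 and 911 CPM in TetHighProg replicates 1, 2 and 5 and at 2288, 2026 and 1517 CPM in TetLowReg replicates 6, 7 and 8. All 6 libraries held it, and the group means were 708 ± 312 and 1944 ± 392 CPM (SD, n = 3 each), a fitted log2 fold change of 1.69 ± 2.46 (SE, edgeR adjusted p = 0.75). Crip1, a small LIM-domain protein, stood at 163, 85.7 and 289 CPM against 1049, 1191 and 1983 CPM, with a log2 fold change of 3.25 ± 2.91 (edgeR adjusted p = 0.498). Prr13, a proline-rich protein, was at 795, 416 and 891 CPM against 2528, 1078 and 1493 CPM. These genes were present in every library of both groups, which sets them apart from the next ones.

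Fyb1, the adaptor ADAP that links the TCR to integrins, stood at 17.5, 0.0395 and 25.0 CPM in TetHighProg and at 4073, 338 and 674 CPM in TetLowReg (log2 fold change 6.95 ± 3.70, edgeR adjusted p = 0.233). Ndfip1, an adaptor of ubiquitin ligases that restrain T cell activation, was at 0.0898, 0 and 698 CPM against 2196, 792 and 1651 CPM, so that TetHighProg replicate 5 came close to TetLowReg replicate 7. Tdp2, a DNA repair enzyme that frees DNA ends from trapped topoisomerase, was at 0.0599, 0 and 99.8 CPM against 475, 438 and 387 CPM. In Ndfip1 and Tdp2, TetHighProg replicates 1 and 2 were at or near 0, and in Fyb1 replicate 2 was. The histone deacylase gene Sirt7 had 1 read in TetHighProg in all, against 339 to 3194 CPM in TetLowReg. The 3 mitochondrial transcripts were at 2715 to 4657 CPM against 4883 to 16503 CPM for the large rRNA mt-Rnr2, 188 to 1127 against 1175 to 5994 for the small rRNA mt-Rnr1, and 798 to 1641 against 2461 to 4393 for mt-Nd4, a subunit of complex I. In TetLowReg replicate 7, where they were highest, mitochondrially encoded genes together took 44.5% of the counts, and their part in these values was not tested.

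Among the leading genes lower in TetLowReg were small GTPases, regulators of the cell cycle and of apoptosis, and the CD8 beta chain. Arf4, a GTPase of Golgi transport (chromosome 14, 26359168 to 26386239, GRCm39), stood at 2075, 4211 and 2885 CPM in TetHighProg replicates 1, 2 and 5 and at 176, 110 and 293 CPM in TetLowReg replicates 6, 7 and 8. The groups lay far apart on this scale, with means of 3057 ± 1079 and 193 ± 92.6 CPM (SD, n = 3 each) and a log2 fold change of -4.10 ± 2.67 (SE, edgeR adjusted p = 0.30). Birc6, a giant inhibitor of apoptosis, was at 4683, 5772 and 3283 CPM against 1217, 199 and 1148 CPM. Cdk6, a kinase of the G1 phase, was at 5691, 13117 and 2013 CPM against 1156, 481 and 1898 CPM, a near touch between TetHighProg replicate 5 and TetLowReg replicate 8. Btg1, an antiproliferative gene of quiescent lymphocytes, was at 7551, 3853 and 9242 CPM against 1162, 979 and 3114 CPM.

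Rap1b, a GTPase that activates integrins, was at 9868, 8177 and 7206 CPM against 36.6, 2268 and 5297 CPM. Ppp2r5c, a regulatory subunit of the phosphatase PP2A, was at 4645, 5471 and 4113 CPM against 0.227, 826 and 1984 CPM. Both were lowest by far in the sparse TetLowReg replicate 6. Mau2, a loader of cohesin, was at 2949, 4930 and 2951 CPM against 1478, 319 and 1634 CPM, and Pitpnc1, a lipid transfer protein, at 4452, 3607 and 2106 against 1342, 360 and 515 CPM.

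**Figure D2:**
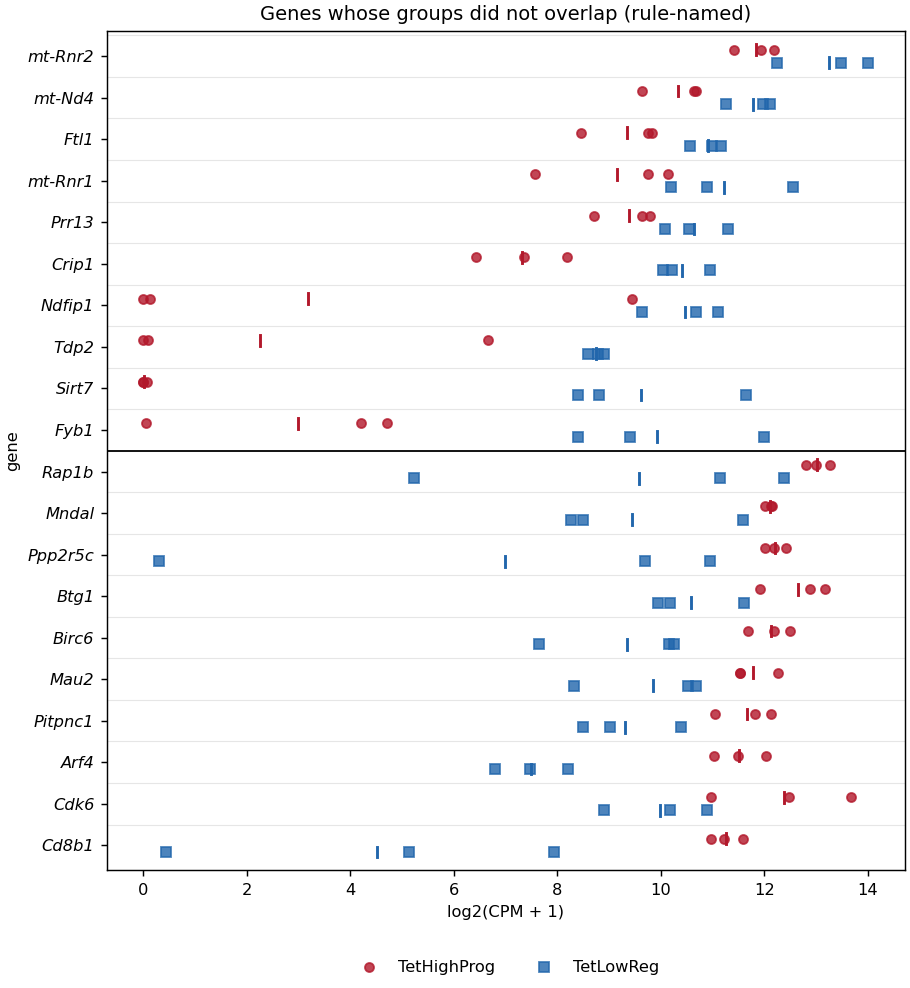
Level of the 20 separated genes named by rule, as log2(CPM + 1), in the 3 TetHighProg libraries (circles) and the 3 TetLowReg libraries (squares), with a bar at each group's mean of the log values. Above the line every square lies to the right of every circle, with Sirt7 near 0 in all 3 TetHighProg libraries, and below it every circle lies to the right, with Ppp2r5c and Cd8b1 near 0 in 1 TetLowReg library each.

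The 2 chains of the CD8 coreceptor went opposite ways. Cd8a (chromosome 6, 71350411 to 71356157, GRCm39) and Cd8b1 (71299772 to 71315087) are neighbors, 35323 bases apart. Cd8a had 0, 0 and 123 counts in TetHighProg replicates 1, 2 and 5 and 47022, 2419 and 3680 counts in TetLowReg replicates 6, 7 and 8. Cd8b1 had 79539, 78155 and 45442 counts against 8, 1250 and 4006. Each gene was separated between the groups, one in each direction. Of the reads counted on either chain, the Cd8a share was 0% in TetHighProg replicates 1 and 2, where a count of 0 allows up to 0.00377% and 0.00384%, and 0.270% in replicate 5 (95% Clopper-Pearson interval 0.224% to 0.322%). It was 99.98% in TetLowReg replicate 6 (99.97% to 99.99%), 65.9% in replicate 7 (64.4% to 67.5%) and 47.9% in replicate 8 (46.8% to 49.0%). In the TetLowProg libraries, which hold low avidity cells of progressing tumors, the share was 37.9%, 0% (up to 0.00400%) and 18.6%. These intervals and limits cover counting error only, since PCR copies are not independent molecules. In the edgeR fit the log2 fold changes were 8.85 ± 4.63 for Cd8a (adjusted p = 0.233) and -4.76 ± 2.80 for Cd8b1 (adjusted p = 0.256). All libraries are labelled as sorted CD8+ cells. In TetHighProg replicates 1 and 2 and TetLowProg replicate 10 the beta chain alone was counted. These are sparse libraries, with 1298, 599 and 1148 genes found, where a count of 0 cannot show that a gene was not expressed. TetLowReg replicate 6, with the highest Cd8a share, is sparse as well (766 genes).

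The other T cell genes were patchy in the same libraries. Of 16 T cell identity genes, 7, 4 and 13 were found in TetHighProg replicates 1, 2 and 5 and 8, 15 and 15 in TetLowReg replicates 6, 7 and 8. Trac, the constant part of the TCR alpha chain, stood at 829, 0 and 1094 CPM against 2298, 103 and 349 CPM, and Cd3d, a chain of the CD3 complex, at 417, 0 and 31.7 CPM against 698, 62.6 and 118 CPM. TetHighProg replicate 2 thus had no read on either, while it held Ptprc, the pan-leukocyte marker CD45, at 5842 CPM. Ptprc was separated lower in TetLowReg, at 1303, 5842 and 1823 CPM against 24.5, 1186 and 1021 CPM. Cd2, an adhesion receptor, had 1, 0 and 0 counts against 71620, 9783 and 3981. Of the 16 identity genes, 2 were separated higher (Cd8a and Cd2), 2 lower (Cd8b1 and Ptprc), out of 8 and 3 members with the counts to qualify, beside 20.9% and 18.4% over all genes. Called were 0 by edgeR (2 at an unadjusted p under 0.05), 1 by DESeq2, out of 8 given an adjusted p, and 5 by limma-voom, all higher. Over all genes the shares higher were 19% (unadjusted p), 33.6% (DESeq2) and 41.3% (limma-voom). The median log2 fold change was 0.70 over the 16 tested, beside 3.52 for all genes.

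Of 28 genes of TCR signaling, TetHighProg held 1, 2 and 11 and TetLowReg held 2, 26 and 23. Lck, the kinase carried by CD8, stood at 0, 2555 and 1109 CPM against 0, 425 and 231 CPM, absent from 1 library of each group. Lat, the scaffold downstream of it, was at 0, 1764 and 695 CPM against 0, 168 and 115 CPM. Ptpn22, a phosphatase that dampens the signal, was at 854, 0 and 796 CPM against 409, 257 and 588 CPM. The list had 0 members separated in either direction, but only 1 had the counts to be separated higher and 0 lower. Of all genes that could qualify, 20.9% were separated higher. The list's median log2 fold change was 5.57 over 27 tested members. Of these edgeR called 0, with 6 at an unadjusted p under 0.05, whereas DESeq2 called 8, out of 16 given an adjusted p, and limma-voom 15, all higher in TetLowReg. Shares higher over all genes were 19%, 33.6% and 41.3%, in the same order.

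**Figure D3:**
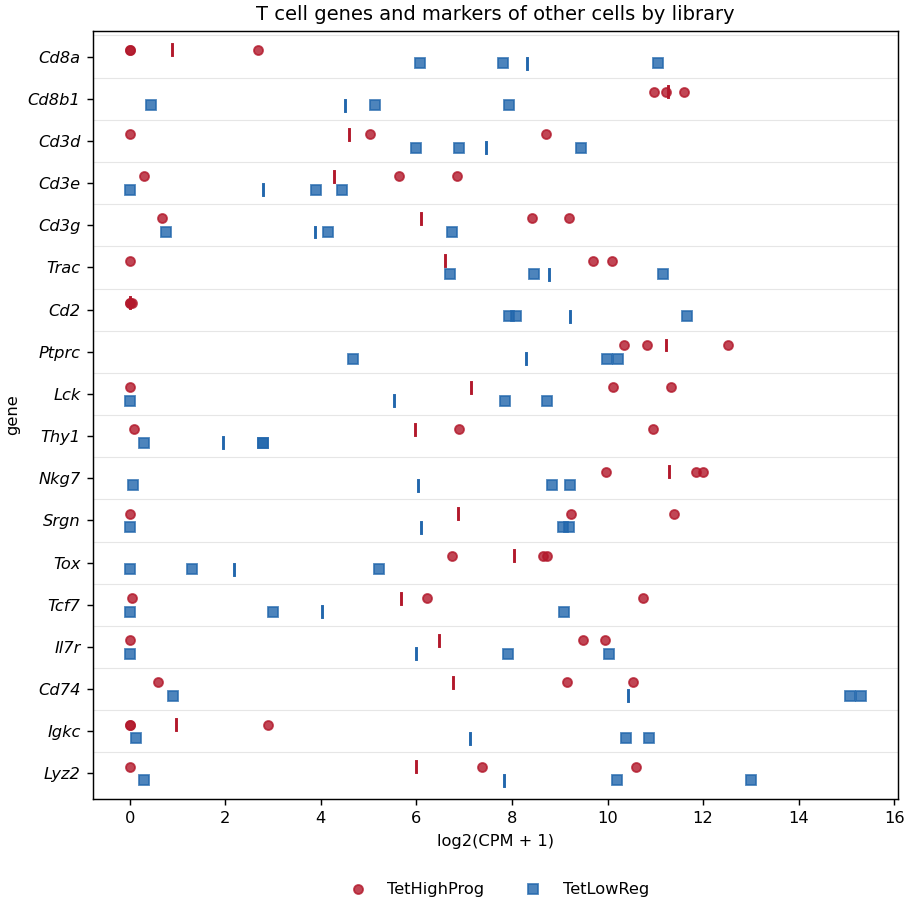
Level of T cell genes and of 3 marker genes of other cells (Cd74, Igkc and Lyz2), as log2(CPM + 1), in each TetHighProg library (circles) and TetLowReg library (squares), with a bar at the mean of the log values. Cd8a and Cd2 lie to the right in TetLowReg, Cd8b1, Ptprc, Nkg7 and Tox to the right in TetHighProg, and for most others at least 1 library of each group is at or near 0.

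Among 18 cytotoxicity and effector genes 1 had the counts to be separated lower and 0 higher. That gene, Nkg7, a protein of cytotoxic granules, was separated, beside 18.4% of all genes that could qualify. It stood at 4101, 3705 and 1005 CPM in TetHighProg and at 0.0454, 456 and 596 CPM in TetLowReg, with a log2 fold change of -2.94 ± 2.48 (SE, edgeR adjusted p = 0.462). Srgn, the proteoglycan that packs granules, was at 2687, 0 and 604 CPM against 0, 588 and 536 CPM. Klrc1, the inhibitory receptor NKG2A, was at 242, 3323 and 0 CPM against 0, 95.2 and 262 CPM. The list's median log2 fold change was 1.87 over 9 tested members, with 0 called by edgeR (3 at an unadjusted p under 0.05) and 3 each by DESeq2 and limma-voom, all higher. DESeq2 gave 5 members an adjusted p, and shares higher over all genes were 19%, 33.6% and 41.3%, in the same order.

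Of 17 inhibitory receptor and exhaustion genes 1 was separated. The list held 1 member with the counts to be separated lower and 1 higher, beside 18.4% and 20.9% separated of all genes that could qualify. Tox, the transcription factor of exhausted cells (chromosome 4, 6686353 to 6991644, GRCm39), stood at 400, 107 and 426 CPM in TetHighProg replicates 1, 2 and 5 and at 0, 1.48 and 36.2 CPM in TetLowReg replicates 6, 7 and 8. The means were 311 ± 177 and 12.6 ± 20.5 CPM (SD, n = 3 each), with a log2 fold change of -4.39 ± 3.73 (SE, edgeR adjusted p = 0.464). Nr4a2, a nuclear receptor induced by TCR signals, was at 0, 2058 and 446 CPM against 44.0, 87.6 and 287 CPM. The list's median of 6.16 over 9 tested members has the opposite sign to Tox. That median counted as moved under 6 alternative settings and as unchanged under 2. By edgeR 0 were called (2 at an unadjusted p under 0.05), by DESeq2 2 of 4 given an adjusted p and by limma-voom 4, all higher. Shares higher over all genes were 19%, 33.6% and 41.3%, in the same order. Pdcd1, named outside the rule because it encodes the target of the antibody, had 0 counts in all TetHighProg libraries and 0, 4 and 1 counts in TetLowReg.

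Of 18 progenitor and memory genes 1 had the counts to be separated higher and 0 lower, beside 20.9% separated higher of all genes that could qualify. That gene, Bcl2, an inhibitor of apoptosis, was separated, at 0, 0 and 0.220 CPM against 2.13, 4.23 and 23.3 CPM. Tcf7, which encodes TCF-1, was at 73.8, 0.0395 and 1702 CPM against 0, 7.0 and 542 CPM, with the groups overlapping (log2 fold change -1.21 ± 3.05, edgeR adjusted p = 0.896). Il7r, the IL-7 receptor of long-lived cells, was at 720, 0 and 990 CPM against 0, 242 and 1043 CPM, and Ccr7, the receptor for homing to lymph nodes, at 0, 0 and 22.5 CPM against 0.0454, 558 and 386 CPM. The list's median log2 fold change was 4.32 over 16 tested members, of which edgeR called 0 (3 at an unadjusted p under 0.05), DESeq2 3 and limma-voom 10, all higher. DESeq2 gave 13 members an adjusted p, and shares higher over all genes were 19%, 33.6% and 41.3%, in the same order.

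In the list of cytokine receptors and JAK-STAT genes, the 2 chains of the IL-18 receptor did not follow each other. Il18rap, the accessory chain (chromosome 1, 40554522 to 40590865, GRCm39), had no read in any TetHighProg library and stood at 6161, 40.3 and 451 CPM in TetLowReg replicates 6, 7 and 8. Taking 3 counts over the TetHighProg group as the limit of a count of 0, its pooled level was at least 52441-fold higher in TetLowReg (fitted log2 fold change 14.73 ± 4.16, edgeR adjusted p = 0.233). This bound, like those given below for other genes, covers counting error only and not the spread between libraries. A gene lost from a sparse library also counts as 0, so no limit on its level in the cells follows. The bound rests mostly on TetLowReg replicate 6. It was 4556-fold without that library, 101094-fold without TetLowReg replicate 7 and 30923-fold without TetHighProg replicate 1, settings chosen after seeing the data. Il18r1, the ligand-binding chain beside it on the chromosome, was at 2577, 0 and 30.7 CPM against 0, 5.33 and 14.1 CPM, with overlapping groups. Il2rg, the common gamma chain shared by the receptors for IL-2, IL-7 and IL-15, was found in all 6 libraries, at 7527, 3902 and 8501 CPM against 6588, 1476 and 2549 CPM. Of the list's 24 members, 1 was separated, out of 3 with the counts to be separated higher, beside 20.9% over all genes. The tools called 0 (edgeR, 5 at an unadjusted p under 0.05), 4 (DESeq2, out of 9 given an adjusted p) and 5 (limma-voom, out of 19 tested), all higher. Shares higher over all genes were 19% (unadjusted p), 33.6% (DESeq2) and 41.3% (limma-voom).

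Interferon-stimulated genes took 0.457%, 0.485% and 0.295% of the counts of TetHighProg replicates 1, 2 and 5 and 0.0152%, 0.0526% and 0.0514% of TetLowReg replicates 6, 7 and 8, with no overlap between the groups. Of the 24 genes on the list, 3 were separated and all 3 were lower in TetLowReg. They were 3 of 3 members with the counts to be separated lower, beside 18.4% over all genes, and 1 member had the counts to be separated higher. The 3 were Ifi214, Ifi209 and Ifi204, and each belongs to the Ifi200 cluster on chromosome 1. Without these 3 the list took 0.298%, 0% and 0.206% of the counts in TetHighProg and 9.07e-06%, 0.0467% and 0.0458% in TetLowReg, and the groups overlapped. The list's median log2 fold change was -2.46 over 12 tested members, beside 3.52 for all genes. Of them edgeR called 0 (1 lower at an unadjusted p under 0.05), DESeq2 2 lower and limma-voom 2 lower and 1 higher. DESeq2 gave 7 members an adjusted p. Shares lower over all genes were 0.516%, 0.482% and 0.206%, in the same order, and 41.3% were higher by limma-voom. Outside the cluster the groups overlapped, as for Ifi47, an interferon-inducible GTPase, at 1878, 0 and 693 CPM against 0, 11.6 and 0.122 CPM, where TetHighProg replicate 2 had no read. For Igtp, a GTPase of the same kind, levels were 1078, 0 and 355 CPM against 0.0454, 15.6 and 162 CPM.

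The whole Ifi200 cluster was then read out, 13 annotated members between 173178445 and 173859456 on chromosome 1 (GRCm39). Of these 12 were found in at least 1 of the 6 libraries and 6 were separated, all lower in TetLowReg. Over all genes the share was 0.52% of the 11164 found and 18.4% of the 315 that could qualify. No other member of the cluster had the counts to be separated lower. The cluster was chosen after these values were seen, so its count is a description. The promoters of 5 separated members are shown because most of the cluster shares one run of letters there. They are windows from 250 bases before to 50 bases after a transcription start, from RefSeq on GRCm38.p6, printed 5′ to 3′ on the gene's strand. Capitals mark GAAA, any 2 bases and GAAA again, on either strand, letters found in elements for interferon regulatory factors (IRF). Ifi203 and Mndal each have 2 windows that overlap, and 1 is shown. For Ifi203 it is the window that holds the letters, and for Mndal both do.
Mndal (chr1:173880138-173880437, minus strand): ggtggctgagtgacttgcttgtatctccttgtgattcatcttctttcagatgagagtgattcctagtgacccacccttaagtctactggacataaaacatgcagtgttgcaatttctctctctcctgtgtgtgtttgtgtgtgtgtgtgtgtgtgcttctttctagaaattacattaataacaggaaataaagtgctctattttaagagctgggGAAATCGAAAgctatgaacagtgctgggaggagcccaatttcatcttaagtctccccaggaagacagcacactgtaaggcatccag
Ifi203 (chr1:173942443-173942742, minus strand): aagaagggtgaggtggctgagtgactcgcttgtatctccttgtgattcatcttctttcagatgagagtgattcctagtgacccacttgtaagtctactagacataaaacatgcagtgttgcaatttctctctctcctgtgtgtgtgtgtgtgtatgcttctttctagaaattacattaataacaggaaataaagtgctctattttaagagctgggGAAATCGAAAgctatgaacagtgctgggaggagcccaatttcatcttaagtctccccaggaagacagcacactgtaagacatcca
Ifi211 (chr1:173912997-173913296, minus strand): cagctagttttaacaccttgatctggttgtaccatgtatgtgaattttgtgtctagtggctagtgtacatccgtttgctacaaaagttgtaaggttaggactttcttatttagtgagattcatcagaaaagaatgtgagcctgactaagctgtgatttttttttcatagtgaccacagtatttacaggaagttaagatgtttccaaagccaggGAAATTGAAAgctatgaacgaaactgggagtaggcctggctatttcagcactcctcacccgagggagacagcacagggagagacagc
Ifi214 (chr1:173535908-173536207, minus strand): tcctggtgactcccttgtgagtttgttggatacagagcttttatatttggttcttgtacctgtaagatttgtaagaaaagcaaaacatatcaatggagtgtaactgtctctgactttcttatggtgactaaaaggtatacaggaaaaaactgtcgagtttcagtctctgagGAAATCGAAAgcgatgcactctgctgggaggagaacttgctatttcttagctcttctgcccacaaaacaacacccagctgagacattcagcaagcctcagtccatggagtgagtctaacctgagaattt
Ifi209 (chr1:173630609-173630908, plus strand): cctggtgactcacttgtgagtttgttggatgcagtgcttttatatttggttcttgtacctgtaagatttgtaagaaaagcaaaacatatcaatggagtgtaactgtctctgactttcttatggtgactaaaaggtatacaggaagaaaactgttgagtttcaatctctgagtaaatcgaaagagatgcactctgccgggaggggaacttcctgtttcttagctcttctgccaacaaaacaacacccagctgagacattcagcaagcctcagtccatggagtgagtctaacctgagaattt
Mndal, Ifi203, Ifi211 and Ifi214 each hold 1 match in the window shown, and Ifi209 holds none. Over the cluster, 10 of 14 windows (71.4%) from 12 matched genes hold the letters, against 1131 of 32851 windows (3.44%) over all genes. The 64 windows of all genes separated lower in TetLowReg held the IRF letters in 5 cases (7.81%), each of these 5 in the cluster, and the 135 windows of genes separated higher in 2 (1.48%). Within the cluster, 4 of the 5 separated members with a window and 5 of the 7 other members held them. Of 8 motifs searched, the letters TGANTCA (N any base, either strand), found in elements for the factor AP-1, are given after their counts were seen. Mndal, Ifi203 and Ifi209 held them, Ifi211, Ifi214 and the 7 other members did not, and 7.81% of all windows did. A match of letters is not a binding site, and these libraries hold no measure of binding.

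Mndal, the most abundant member, stood at 4568, 4509 and 4151 CPM in TetHighProg replicates 1, 2 and 5 and at 3067, 306 and 359 CPM in TetLowReg replicates 6, 7 and 8. The 3 TetHighProg libraries lay close together, at 4409 ± 226 CPM (SD, n = 3), while TetLowReg spread over 1244 ± 1579 CPM, and the log2 fold change was -2.16 ± 2.22 (SE, edgeR adjusted p = 0.58). Ifi203 was at 182, 141 and 222 CPM against 127, 34.2 and 15.0 CPM. Ifi204, a sensor of foreign DNA, was at 168, 545 and 601 CPM against 152, 51.8 and 55.9 CPM, and Ifi211 at 47.5, 151 and 160 CPM against 38.6, 16.9 and 18.8 CPM. These 4 were found in all 6 libraries, and in each of them TetLowReg replicate 6 was the highest of its group and next to the lowest TetHighProg library.

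Ifi214 and Ifi209 instead were close to absent from TetLowReg. Ifi214 had 40898, 94059 and 5505 counts in TetHighProg and 0, 239 and 0 in TetLowReg (log2 fold change -9.40 ± 3.82, edgeR adjusted p = 0.233). Ifi209 had 6640, 15058 and 971 counts against 1, 19 and 0 (log2 fold change -10.08 ± 5.54, edgeR adjusted p = 0.236). The other members were seen in few libraries. Ifi208 and Ifi213 had 5087 and 390 counts in TetHighProg replicate 5 and none in replicates 1 and 2, and Ifi207 and Ifi202b had no count in TetHighProg and 578 and 810 counts in TetLowReg replicate 8 and replicate 7.

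Members of this family resemble each other, and reads that fit several genes equally well were not counted, so the split between copies is uncertain. Ifi211 had 25.4 to 33.7 counts for every 100 of Ifi204 in all 6 libraries, whereas Ifi204 had 3.68 to 16.9 for every 100 of Mndal. Together the 13 genes took 0.639%, 0.965% and 0.567% of the counts in TetHighProg and 0.339%, 0.0446% and 0.0485% in TetLowReg. In TetLowProg the shares were 0.115%, 0.542% and 0.0269%, with Mndal at 422, 4321 and 198 CPM in replicates 9, 10 and 12. Replicate 10, a sparse library of low avidity cells from a progressing tumor, lay within the TetHighProg range for Mndal.

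**Figure D4:**
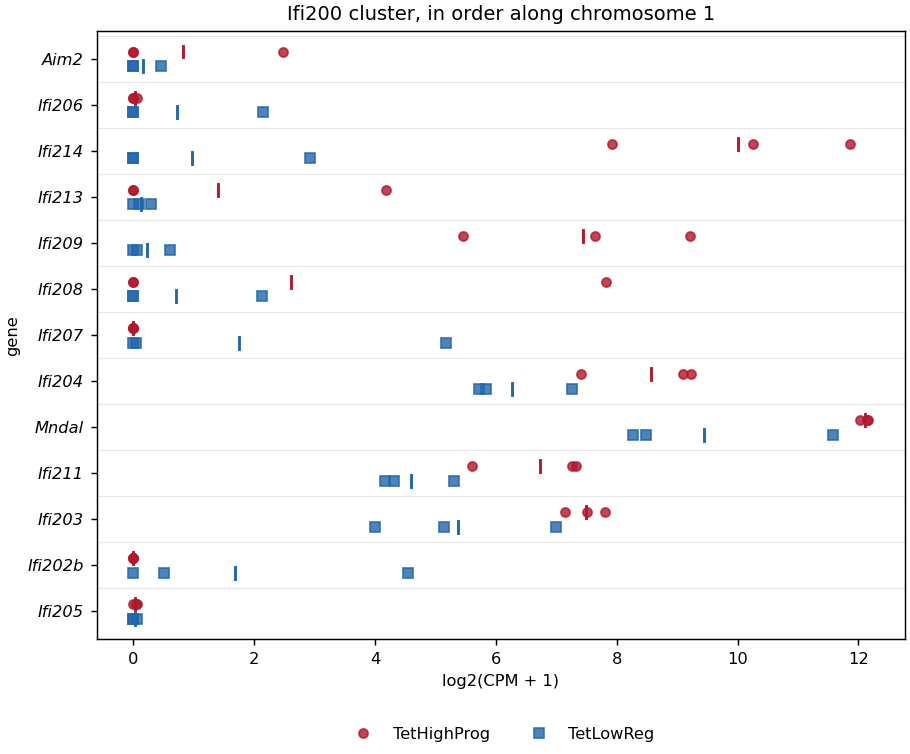
Level of the 13 genes of the Ifi200 cluster, in their order along chromosome 1, as log2(CPM + 1), in TetHighProg (circles) and TetLowReg (squares) libraries, with a bar at the mean of the log values. The 6 separated genes (Ifi214, Ifi209, Ifi204, Mndal, Ifi211 and Ifi203) have every circle to the right of every square, and the other 7 are at 0 in at least 1 library of each group.

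The cell cycle list took 1.05%, 1.88% and 0.463% of the counts in TetHighProg and 0.262%, 0.239% and 0.337% in TetLowReg, also without overlap. The lack of overlap rests on Cdk6 and Mcm4, without which the shares were 0.145%, 1.58e-05% and 0.245% against 0.146%, 0.191% and 0.142%, with the groups overlapping. Of its 39 members, 4, 2 and 8 were found in TetHighProg and 2, 25 and 24 in TetLowReg. Of them 2 were separated, both lower in TetLowReg, namely Cdk6 and Mcm4, a subunit of the replicative helicase. Mcm4 stood at 3324, 5696 and 165 CPM against 0, 0.824 and 43.6 CPM (log2 fold change -7.98 ± 3.26, edgeR adjusted p = 0.233). These were the 2 members with the counts to be separated lower, and 2 had the counts to be separated higher. Of all genes that could qualify, 18.4% were separated lower and 20.9% higher. The median over 20 tested members was 7.39, the opposite sign of the share. While edgeR called 0 (10 higher and 1 lower at an unadjusted p under 0.05), DESeq2 called 11 higher and 1 lower and limma-voom 13 higher and 1 lower. DESeq2 gave 15 members an adjusted p. Over all genes the shares were 19%, 33.6% and 41.3% higher and 0.516%, 0.482% and 0.206% lower, in the same order. In the DNA damage and apoptosis list Rad17, a checkpoint protein, was separated higher, with 0 counts in all TetHighProg libraries and 95.6, 29.0 and 4.02 CPM in TetLowReg, a pooled level at least 1170-fold higher with TetHighProg set to 3 counts in all, which became 576-fold without TetLowReg replicate 6 and 690-fold without TetHighProg replicate 1. Ppp1r10, a regulatory subunit of the phosphatase PP1, was separated lower, at 668, 2889 and 29.0 CPM against 0, 4.28 and 1.04 CPM (log2 fold change -9.32 ± 4.06, edgeR adjusted p = 0.233). This list's 16 tested members had a median log2 fold change of -0.26, with 0 called by edgeR (3 higher and 2 lower at an unadjusted p under 0.05), 5 higher and 3 lower by DESeq2 and 5 higher and 1 lower by limma-voom. DESeq2 gave 13 members of this list an adjusted p, and the shares over all genes are those just given. Of its members with the counts to qualify, 1 of 2 was separated higher and 1 of 1 lower.

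Of 79 nuclear genes of oxidative phosphorylation, 20, 10 and 35 were found in TetHighProg and 10, 70 and 65 in TetLowReg, with 5 separated higher (Atp5me, Uqcrc2, Uqcr10, Sdha and Ndufv2) and 2 lower (Uqcrc1 and Atp5mc1). These were 5 of 9 and 2 of 4 members with the counts to qualify, beside 20.9% and 18.4% over all genes. The 2 core proteins of complex III thus stood on opposite sides. Uqcrc1 was at 1593, 6902 and 1411 CPM against 0, 463 and 1247 CPM, and Uqcrc2 had no count in TetHighProg and stood at 24.8, 124 and 20.0 CPM in TetLowReg. Sdha, the flavoprotein of complex II, likewise had no count in TetHighProg and stood at 52.5, 66.3 and 33.1 CPM, at least 1492-fold higher when pooled, or 880-fold without TetHighProg replicate 1. The list's median was 1.52 over 71 tested members, with 0 called by edgeR (12 at an unadjusted p under 0.05), 17 by DESeq2, all higher, and 37 higher and 1 lower by limma-voom. DESeq2 gave 47 members an adjusted p. Shares higher over all genes were 19%, 33.6% and 41.3%, in the same order, and 0.206% were lower by limma-voom.

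Of 83 ribosomal protein genes, 39, 21 and 67 were found in TetHighProg and 22, 80 and 78 in TetLowReg. There were 5 separated higher (Rps27, Rpl21, Rps3, Rps15a and Rpl23) and 1 lower (Rpl37), out of 22 and 14 with the counts to qualify, beside 20.9% and 18.4% over all genes. Rps3 had 2, 0 and 8 counts against 43972, 13441 and 4889. Among 18 glycolysis and hypoxia genes, Aldoa, an enzyme of glycolysis, was separated lower, at 868, 6248 and 1194 CPM against 0, 378 and 518 CPM. It was the 1 member with the counts to be separated lower, and 2 had those for higher. Of 48 proteasome genes Psmd5, an assembly chaperone, and Psmd11, a lid subunit, were separated higher. There 5 had the counts for higher and 5 for lower, beside the same 20.9% and 18.4% over all genes. The medians were 1.09 over 79 ribosomal, 2.25 over 15 glycolysis and 2.56 over 40 proteasome genes tested. In each edgeR called 0, with 3, 4 and 8 higher at an unadjusted p under 0.05, beside 19% over all genes. DESeq2 called 7, 2 and 7 higher, out of 64, 9 and 21 members with an adjusted p, beside 33.6%. By limma-voom 28, 7 and 17 of the tested members were called higher, beside 41.3%.

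Among 25 chromatin regulators, Sirt7 and Ikzf1 were separated higher, 2 of the 3 members with the counts to qualify, beside 20.9% over all genes. By edgeR 0 of 21 tested members were called (9 at an unadjusted p under 0.05), by DESeq2 12 of 18 given an adjusted p and by limma-voom 15, all higher. Shares higher over all genes were 19%, 33.6% and 41.3%, in the same order. Ikzf1, the lymphoid transcription factor Ikaros, had no count in TetHighProg and stood at 59.1, 57.9 and 66.1 CPM in TetLowReg (61.1 ± 4.44 CPM, SD, n = 3), a pooled level at least 1630-fold higher, or 961-fold without TetHighProg replicate 1 (fitted log2 fold change 10.06 ± 4.78, edgeR adjusted p = 0.233). Of the list, 4, 4 and 6 members were found in TetHighProg and 5, 21 and 22 in TetLowReg. The lists for class I presentation, trafficking and adhesion, costimulation, autophagy and lysosome, and immediate-early and heat shock genes had 0 members separated and 0 called by edgeR. Members with the counts to be separated numbered 3, 0, 1, 0 and 3 for higher and 2, 0, 0, 0 and 2 for lower, in that order, beside 20.9% and 18.4% separated over all genes. In the lists with 0 for both directions no separation was possible. At an unadjusted p under 0.05 there were 1, 3, 3, 10 and 0 members. For DESeq2 the counts were 2, 5, 3, 11 and 0, and for limma-voom 4, 10, 5, 17 and 3, all higher but 1 costimulation gene at the unadjusted p and by DESeq2. DESeq2 gave an adjusted p to 10, 9, 7, 18 and 8 members, and limma-voom tested 14, 14, 9, 29 and 16. Of all genes 33.6% and 41.3% were called higher by these 2 tools. The median log2 fold changes of these lists were 0.31, 8.28, 2.52, 6.48 and 0.01, in that order. Cd28, the main costimulatory receptor of T cells, stood at 3070, 0 and 2015 CPM against 8589, 267 and 866 CPM, and B2m, the light chain of class I, at 3041, 8062 and 1384 CPM against 1753, 1174 and 973 CPM. Hspa8, a chaperone, was found in all 6 libraries at 3308, 1023 and 6580 CPM against 6521, 1026 and 2047 CPM.

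**Figure D5:**
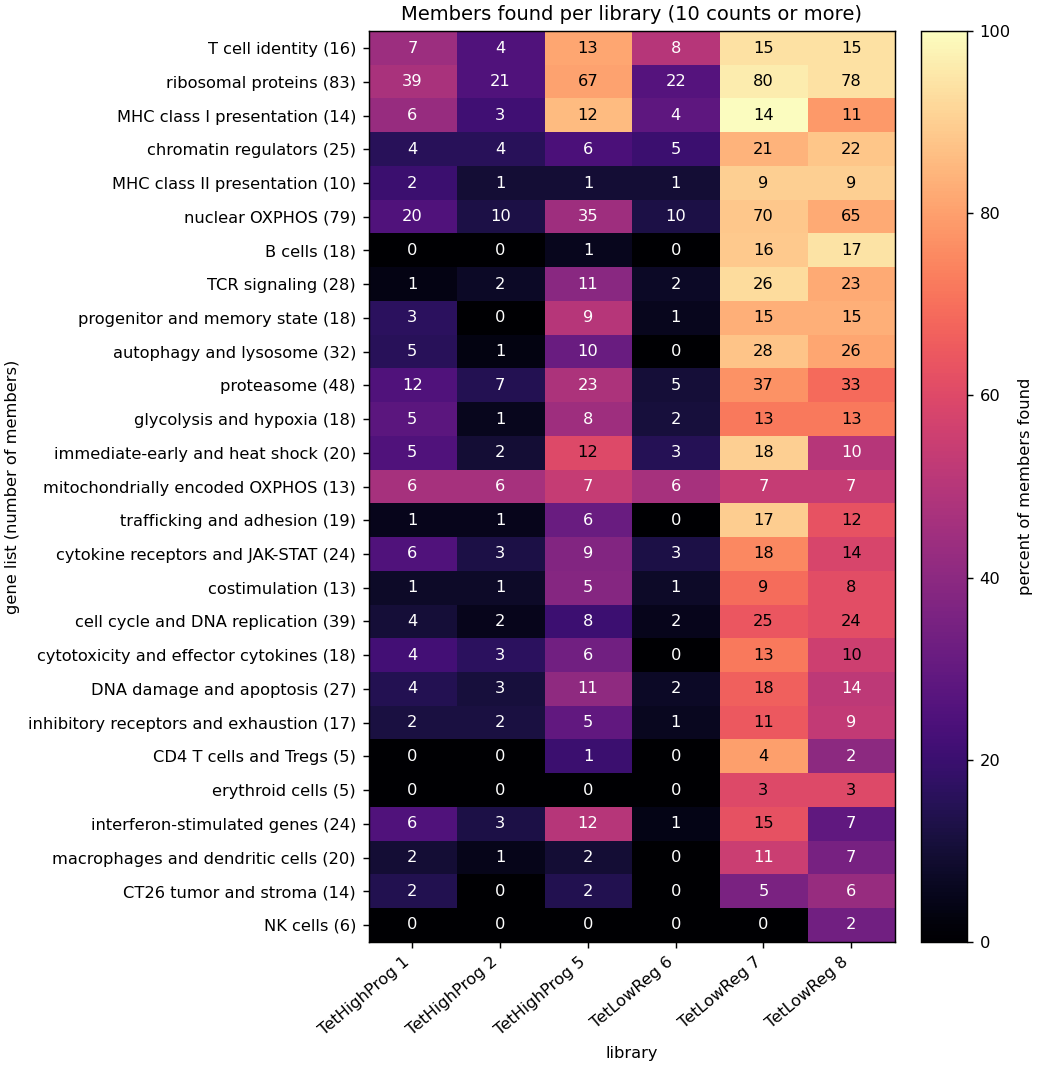
Number of members of each gene list found (10 counts or more) in each of the 6 libraries, with the color giving the percent of the list. TetLowReg replicates 7 and 8 hold most members of most lists, TetHighProg replicate 5 is between, and TetHighProg replicates 1 and 2 and TetLowReg replicate 6 hold few, while the 13 mitochondrially encoded genes are found at 6 or 7 in every library.

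Among the 6 libraries, B cell, class II and erythroid genes were found mostly in TetLowReg replicates 7 and 8. Of 18 B cell genes, 0, 0 and 1 were found in TetHighProg and 0, 16 and 17 in TetLowReg, with Bank1, a B cell scaffold protein, at 0 in all TetHighProg libraries and 0, 352 and 709 CPM in TetLowReg. Their summed share was at most 0.000652% in TetHighProg and in TetLowReg replicate 6, and 0.425% and 0.394% in replicates 7 and 8. Of 16 tested edgeR called 0 (13 at an unadjusted p under 0.05), DESeq2 15 and limma-voom 16, all higher, beside 19%, 33.6% and 41.3% over all genes. Of 10 class II presentation genes, 2, 1 and 1 were found against 1, 9 and 9, at 0.057% to 0.150% of the counts in TetHighProg and 4.85% and 4.03% in TetLowReg replicates 7 and 8, most of it Cd74. Of 20 macrophage and dendritic cell genes, 2, 1 and 2 were found against 0, 11 and 7, with Lyz2, lysozyme, at 1543, 0 and 165 CPM against 0.227, 8222 and 1182 CPM and the complement genes C1qa, C1qb and C1qc at 0 in all 6. Their summed share was 0.198%, 0.00783% and 0.0203% against 2.72e-05%, 0.911% and 0.151%, so TetHighProg replicate 1 lay above TetLowReg replicate 8. Of 5 erythroid genes, 3 were found in each of TetLowReg replicates 7 and 8 and none in the other 4 libraries compared. TetLowProg replicate 12 likewise held 3 erythroid and 17 B cell genes, with class II genes at 6.18% of its counts. Of 5 CD4 T cell and Treg genes, 0, 0 and 1 were found against 0, 4 and 2, with Cd4 itself at 2020 and 42 counts in TetLowReg replicates 7 and 8. Of 14 tumor and stroma genes, 2, 0 and 2 were found against 0, 5 and 6, with the keratins Krt8, Krt18 and Krt19 at 0 in all 6. Their share was highest in TetHighProg replicate 1, at 0.0387%, beside 0.0190% and 0.0108% in TetLowReg replicates 7 and 8. Of 6 NK cell genes, 2 were found in TetLowReg replicate 8 and 0 in the other libraries compared, with Ncr1 and Klrb1c at 0 in all 6, and 1 was found in TetLowProg replicate 9. The part of such cells in any comparison above was not tested.

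The genes found in all 6 libraries had 10 counts or more in each, which can still be close to absent. Upf1, for example, had 10 counts in TetLowReg replicate 6. There were 204, with a median log2 fold change of -0.57 (136 below and 68 above 0) beside 3.52 for all tested genes, and requiring reads in each library leaves out any gene lost in one. At an unadjusted p under 0.05 there were 2, Cd74 and mt-Cytb, and edgeR called 0. Cd74, the class II invariant chain, stood at 0.509, 1482 and 568 CPM against 0.862, 40511 and 34306 CPM, so TetLowReg replicate 6 lay with the lowest TetHighProg library. mt-Cytb, a mitochondrially encoded subunit of complex III, stood at 41628, 16417 and 20575 CPM against 4840, 401805 and 114171 CPM, with replicate 6 below all TetHighProg libraries. The other genes at the high end were G3bp1, a stress granule protein, at 2.07, 29.5 and 14.8 CPM against 1314, 248 and 40.8 CPM, together with Crip1 and Iqcb1.

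Among those at the low end were Hsf2, Paip1, Upf1 and Zfp36l1. Hsf2, a heat shock transcription factor, stood at 207, 2832 and 338 CPM against 1.91, 27.1 and 24.4 CPM, a log2 fold change of -6.11 ± 3.57 (SE, edgeR adjusted p = 0.252). Paip1, an activator of translation, was at 839, 2691 and 296 CPM against 4.45, 43.8 and 185 CPM, Upf1, the helicase of nonsense-mediated decay, at 156, 354 and 47.6 CPM against 0.454, 13.8 and 15.8 CPM, and Zfp36l1, an mRNA-decay factor, at 44.4, 162 and 59.5 CPM against 4.08, 4.97 and 7.62 CPM. For these 4 the groups did not overlap. Malat1, a nuclear noncoding RNA, led 4 libraries and stood at 62554, 70211 and 35612 CPM against 61340, 34757 and 42679 CPM (log2 fold change -0.40 ± 1.06, edgeR adjusted p = 0.899). Ptp4a2, a phosphatase, was at 27900, 42128 and 23038 CPM against 30339, 7491 and 20453 CPM, and Actb at 55158, 26594 and 10376 against 13551, 13696 and 12909 CPM.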

How the data were processed

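Gene counts of 9 tetramer-sorted libraries (3 groups of 3) were analysed, of which the 6 of TetLowReg and TetHighProg are compared. The authors deposited raw counts per gene, which per the labels were made with STAR 2.7.6a on GRCm39 (mm39), and featureCounts is named as well. The tables have the layout of the gene counts of STAR, and the annotation release is not given in the sources used here. The unstranded counts were used, without the 4 summary lines, since 50.2% to 50.8% of stranded reads fell on one strand. In the 6 libraries, 40.1% to 55.2% of reads were counted on genes and 7.51% to 12.6% mapped to several places and were not counted. Of 32976 genes, 28645 matched GENCODE M39, which gave names and coordinates.

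Genes were tested with edgeR 4.0.16 in R 4.3.3 (quasi-likelihood test, TMM, default filter on low counts, prior count of 2, two-sided, Benjamini-Hochberg adjustment) over all 9 libraries, since the third group shares the estimate of the spread. Standard errors were taken from the fold change and its F statistic. The test was also run on simulated counts, with the outcome not reported here. With 1 library per sorted sample and 22 amplification cycles, p-values measure the spread between these libraries only. Alternatives used DESeq2 1.42.0 and limma 3.58.1. Found genes were also counted at 1 and 50 counts and after thinning to the smallest total. Intervals are 95%, and they and the pooled bounds cover counting error only. Figures used Python 3.11.15 and matplotlib 3.10.9.

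The groups compared, the gene lists and the motifs were chosen with earlier results of these data known. Genes are named by rule: those called, the 10 separated genes per direction with the highest CPM in the lowest library of the higher group, the 5 largest and 5 smallest fold changes among genes found in all 6 libraries, the 3 leading genes of each library, and per list the 3 members with the highest mean CPM and any found in at least 2 TetHighProg or all 3 TetLowReg libraries. Exceptions are stated beside them or were taken as parts of a cluster or marker list shown whole. Some genes that the rule names are not reported here.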

Additional observations from a re-analysis of the deposited data

How the results depend on the processing

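The edgeR count of 0 called genes stayed 0 with no filter on low counts, with 10 counts in every library of a group, with library size only, without a fold threshold and with mitochondrially encoded genes left out. It was 2 (Cd74 and mt-Cytb) for edgeR on the 2 groups, 1841 and 1057 for DESeq2 on 3 groups with default and poscounts size factors, 1131 for DESeq2 on 2 groups and 2411 for limma-voom, and 0 to 4 when each library was left out, with 4 without TetLowProg replicate 9. The genes separated higher numbered 362 at a minimum of 1 count, and 151 to 2668 over the libraries left out in turn, and those separated lower 65 to 272. With mitochondrially encoded genes left out of the totals, a setting chosen after seeing the data, they numbered 143 and 49. Genes found in all 6 libraries numbered 379 at 1 count and 204 to 370 with each library left out. Of the gene lists, 12 had a median above that of all tested genes, and 12 to 19 did under the alternatives, with 14 to 19 when a library was left out and 19 without TetHighProg replicate 5. The medians themselves were less stable. Over the 27 lists with a median, 58 values under alternatives counted as moved and 156 as unchanged. The difference in genes found per library kept its direction, at 2307 to 5926 with a library left out. The log2 fold changes of the 29 named genes kept their direction in all of 518 values but 1, that of mt-Nd4, which was -0.10 with the poscounts size factors of DESeq2. The cause was not tested. List shares without their separated members and pooled bounds without a library were also chosen after seeing the data. No paired analysis was possible because the 2 groups share no replicate number.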
